A study of Homo sapiens with 2 samples.

Results

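The Krüppel-like factors (KLF) are transcription factors that share a block of zinc fingers at the C terminus and bind GC-rich and CACCC-containing DNA. The 10 genes described here, KLF2, KLF3, KLF4, KLF5, KLF6, KLF7, KLF9, KLF10, KLF11 and KLF13, were taken by name out of the 17397 genes listed for each library. The question was how their transcripts differed between wild-type (WT) and MEIS2-/- cells during early blood formation in culture, and whether KLF2 and KLF4, the family members known from endothelium, stood apart from the other 8. Both libraries came from H1, an established human embryonic stem cell line, at day 4 of hematopoietic differentiation, after 2 days in 50 ng/ml activin A with 40 ng/ml BMP4 and 2 days in 40 ng/ml VEGF with 50 ng/ml bFGF. The WT group was 1 library of unedited H1 cells and the MEIS2-/- group was 1 library of H1 cells with both copies of MEIS2 disrupted by CRISPR/Cas9. Such lines were made by lentiviral delivery of Cas9 and a guide, puromycin selection and expansion from individual cells, so a line is 1 clone, and the clone that was sequenced is not given in the sources used here. MEIS2, a homeodomain factor, was at 10.85 FPKM in WT and 3.44 FPKM in MEIS2-/- cells, so its log2 fold change was −1.63. An edit in an exon need not lower the mRNA, so this level is no check of the deletion.

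Values are FPKM, the fragments assigned to a gene per kilobase of its transcripts, scaled to the mapped fragments of the library, so they can be compared between genes. With 1 library per genotype there is no spread between cultures, and no difference below has a test, an error or a p-value. A gene was compared when it had at least 1 FPKM in at least 1 library, which left 13075 genes, and the fold changes are log2 of MEIS2-/- over WT after 0.1 FPKM was added to each value. Counts of changed genes use a threshold of 2-fold. At this threshold 7.97% of the 13075 genes were lower and 7.84% higher, and each count below should be read beside these shares. Over all 13075 genes the median log2 fold change was 0.12, and that shift is the level against which the values below should be read. Of the 10 KLF genes, 9 were compared, and KLF9 was too low in both libraries.

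KLF proteins fall into subgroups by the cofactors they recruit. KLF2, KLF4, KLF5, KLF6 and KLF7 mostly activate transcription and can recruit acetyltransferases. KLF3 represses through CtBP, and KLF9, KLF10, KLF11 and KLF13 repress through SIN3A and histone deacetylases. In endothelium, KLF2 and KLF4 are induced by laminar flow through the kinase ERK5 and MEF2 factors, and they support the expression of endothelial nitric oxide synthase and other genes of quiescent vessels. KLF4 is also a factor of epithelial cells and one of the classical reprogramming factors, and KLF10 is an early response gene of TGF-beta.

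KLF2 and KLF4 changed in opposite directions and by a similar size. KLF2, whose loss in mice disturbs vessel walls and the heart, was at 34.51 FPKM in WT and at 6.49 FPKM in MEIS2-/- cells, so that 18.8% of the WT level remained. KLF4 was at 7.26 FPKM in WT and at 37.37 FPKM in MEIS2-/- cells, 5.15-fold higher. The levels of the pair thus traded places between the genotypes. The log2 fold change was −2.39 for KLF2 and 2.35 for KLF4. KLF2 had the 145th lowest log2 fold change of the 13075 compared genes, and KLF4 had the 132nd highest. KLF2 transcripts were 4.75 times as abundant as those of KLF4 in WT cells, and KLF4 transcripts were 5.76 times as abundant as those of KLF2 in MEIS2-/- cells. Added together, KLF2 and KLF4 stood at 41.77 FPKM in WT and 43.86 FPKM in MEIS2-/- cells, so the sum hardly differed while its make-up did. In bulk RNA from whole cultures, fewer cells of a type and less RNA per cell cannot be told apart, and this holds for each value here.

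**Figure D1:**
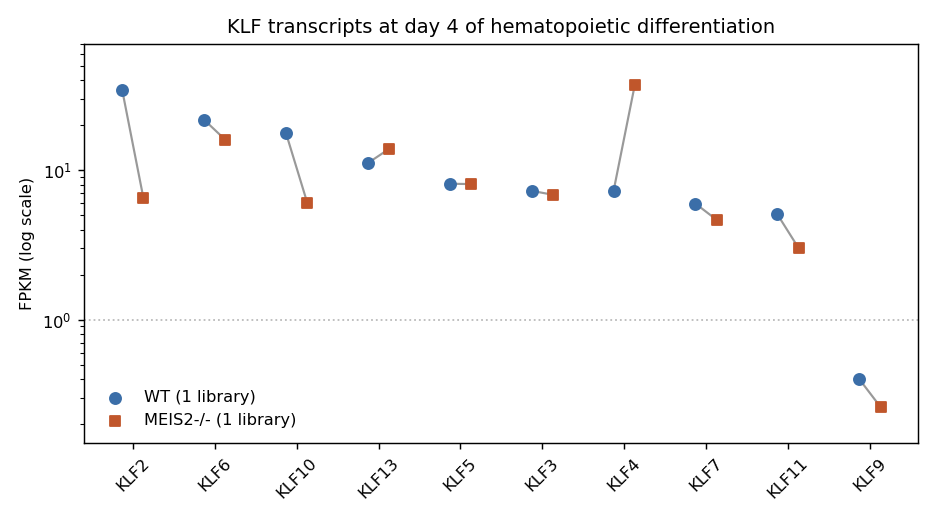
FPKM (log scale) of the 10 KLF genes in the WT library (circles) and the MEIS2-/- library (squares), ordered by the WT level, with 1 library per genotype and the dotted line at 1 FPKM. KLF2 drops from 34.51 to 6.49 FPKM and KLF4 climbs from 7.26 to 37.37 FPKM, while KLF9 lies below the line in both libraries.

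The sequences before the transcription starts of KLF2 and KLF4 are shown because these genes had the largest differences of the family. They are the 250 bases upstream of the RefSeq start on GRCh38.p14, read 5′ to 3′ on the strand of the gene, KLF2 at chr19:16324576-16324825 on the plus strand and KLF4 at chr9:107489770-107490019 on the minus strand. Capitals mark, in KLF2, a match to the MEIS hexamer TGACAG, here in its complement, and a match to the MEF2 motif, and in KLF4 the GC boxes GGGCGG in either direction.
KLF2: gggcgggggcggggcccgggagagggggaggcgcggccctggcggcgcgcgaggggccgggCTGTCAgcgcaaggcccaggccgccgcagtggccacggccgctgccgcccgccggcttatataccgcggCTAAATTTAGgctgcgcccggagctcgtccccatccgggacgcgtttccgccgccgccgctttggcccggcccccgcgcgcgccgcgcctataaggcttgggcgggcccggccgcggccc
KLF4: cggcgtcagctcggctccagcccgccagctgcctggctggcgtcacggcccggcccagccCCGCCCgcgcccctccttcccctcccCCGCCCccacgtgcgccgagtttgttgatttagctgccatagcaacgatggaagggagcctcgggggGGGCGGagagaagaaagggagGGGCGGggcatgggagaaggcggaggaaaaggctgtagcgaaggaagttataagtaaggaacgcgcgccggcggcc

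Counted from the start, with −1 as the base before it, the MEIS hexamer of KLF2 lay from −189 to −184 and the MEF2 motif from −120 to −111. Neither was found in the KLF4 window. Both windows held 4 GC boxes and no CACCC box. RefSeq windows were matched for 8 of the 10 genes, 13 windows in all, since KLF5, KLF7 and KLF11 have several starts. KLF3 and KLF10 had no match. Both strands were searched, overlapping matches were counted, and a palindromic match was counted once. The MEIS hexamer was in 2 of the 13 windows, those of KLF2 and of the second KLF5 start, against 13% of the 35116 windows of all genes. The KLF5 match is shown because it was the only match to the MEIS hexamer or the MEF2 motif outside the KLF2 window. It lies in the stretch chr13:73058755-73058782 on the plus strand, with the hexamer in capitals.
KLF5: ccagcccaatCTGTCAgagaagttgtgt

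The MEF2 motif was in 1 of the 13 windows, that of KLF2, against 2.8% of all windows. GC boxes were in 8 of the 13 windows and in 42.6% of all windows, and the CACCC box was in 6 of the 13 and in 54.7% of all. A match describes the letters of a window and shows no binding, and the libraries hold no measurement of binding.

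**Figure D2:**
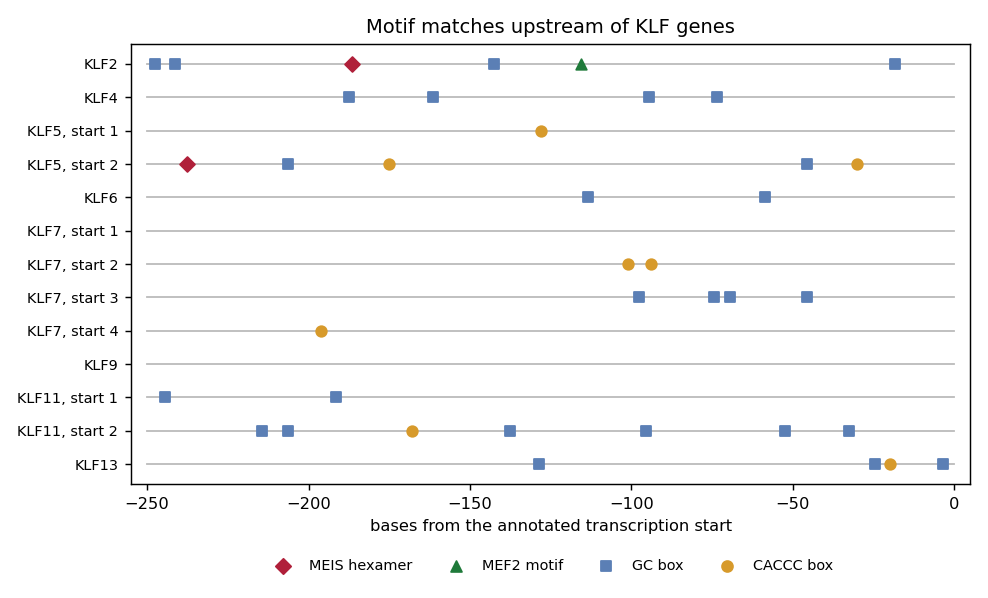
Positions of the MEIS hexamer, the MEF2 motif, the GC box and the CACCC box in the 250 bases before each RefSeq start of 8 KLF genes, in bases from the start. The KLF2 row alone holds a MEF2 motif, and the MEIS hexamer appears in the rows of KLF2 and of the second start of KLF5.

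The other activators of the family differed less than KLF2 and KLF4. KLF6, an early response gene and growth suppressor, was at 21.78 FPKM in WT and 15.97 FPKM in MEIS2-/- cells, with a log2 fold change of −0.45. It was the second most abundant of the 10 genes in both libraries. KLF5, a factor of proliferating epithelium and of smooth muscle, was at 8.12 and 8.08 FPKM, a log2 fold change of −0.01. KLF7, known from neurons, was at 5.98 and 4.65 FPKM, a log2 fold change of −0.36. KLF5, like KLF4, is expressed in epithelium, and the part of epithelial cells in either value was not tested.

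Among the repressors, KLF10 differed most. KLF10, also named TIEG1, was at 17.75 FPKM in WT and 6.06 FPKM in MEIS2-/- cells, 2.93-fold lower, with a log2 fold change of −1.53. It ranked 3 by level among the 10 genes in WT and 7 in MEIS2-/- cells. KLF11, its closest relative and also named TIEG2, was at 5.07 and 3.01 FPKM, a log2 fold change of −0.73, which did not reach 2-fold. KLF13, a factor first described in T cells, was at 11.16 FPKM in WT and 13.91 FPKM in MEIS2-/- cells. Its log2 fold change of 0.32 was positive, as among the 9 compared KLF genes only that of KLF4 was. KLF3, the CtBP-binding member of the 10, was at 7.28 and 6.85 FPKM, a log2 fold change of −0.09. Reads of the overlapping antisense gene KLF3-AS1, and for KLF9 those of KLF9-DT, could not be told apart from theirs, and KLF2, KLF3, KLF4 and KLF7 have pseudogenes that could share reads. KLF9, a gene induced by glucocorticoid and thyroid hormone, was listed at 0.40 FPKM in WT and 0.26 FPKM in MEIS2-/- cells.

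Of the 9 compared genes, 2 were at least 2-fold lower, KLF2 and KLF10, against 7.97% of all compared genes. At least 2-fold higher was 1 gene, KLF4, against 7.84% of all compared genes. All 9 reached 5 FPKM in a library, and among the 9326 genes that did so, 6.41% were at least 2-fold lower and 5.94% at least 2-fold higher. With 9 genes these counts are too small to set the family apart from other genes. The median log2 fold change of the 9 was −0.36. Of the other 8 genes, 7 were compared, with log2 fold changes from −1.53 to 0.32 and a median of −0.36. KLF2 lay 2.04 below that median on the log2 scale and KLF4 lay 2.70 above it. The median size of the change, without its sign, was 0.36 for these 7 genes and 0.38 over all compared genes. The 7 genes therefore differed between the libraries about as much as a typical gene, with KLF10 as the exception, and KLF2 and KLF4 differed more than any of them. Of all compared genes, 2.05% had a larger change in either direction than KLF2 and 2.18% a larger one than KLF4, against 6.77% for KLF10.

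**Figure D3:**
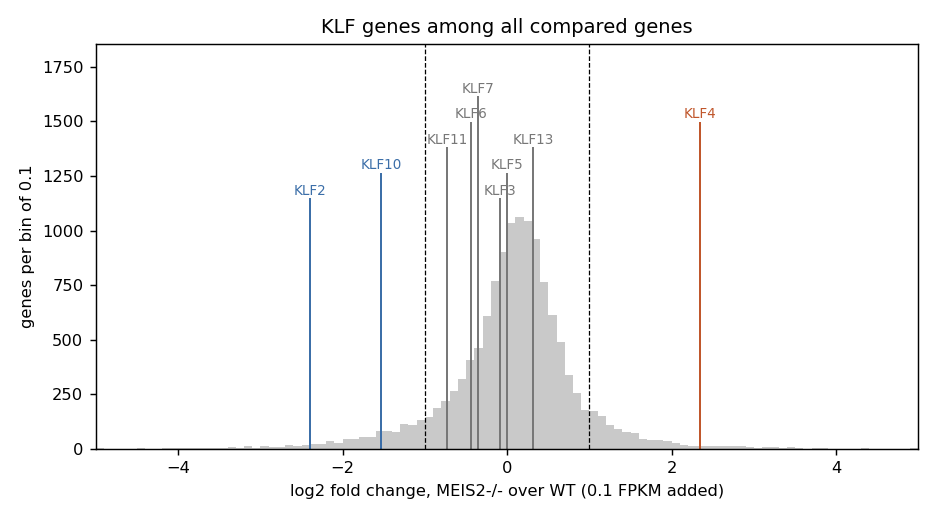
Histogram of the log2 fold changes (MEIS2-/- over WT, 0.1 FPKM added) of the 13075 compared genes in bins of 0.1, with lines for the 9 compared KLF genes and dashed lines at 2-fold, values beyond 5 drawn in the outermost bins. KLF2 at −2.39 and KLF10 at −1.53 lie left of the dashed lines and KLF4 at 2.35 lies right of them.

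The sum over the 10 genes was 119.31 FPKM in WT and 102.65 FPKM in MEIS2-/- cells. KLF2 made up 28.9% of this sum in WT and 6.32% in MEIS2-/- cells. KLF4 made up 6.09% in WT and 36.4% in MEIS2-/- cells. The 8 others together were at 77.54 FPKM in WT and 58.79 FPKM in MEIS2-/- cells, and the fall of KLF10 by 11.69 FPKM was the largest part of that difference. In WT the order by level was KLF2, KLF6, KLF10, KLF13, KLF5, KLF3, KLF4, KLF7, KLF11 and KLF9. In MEIS2-/- cells it was KLF4, KLF6, KLF13, KLF5, KLF3, KLF2, KLF10, KLF7, KLF11 and KLF9. KLF3 at 7.28 and KLF4 at 7.26 FPKM in WT were next to each other in the order with a gap of 0.02 FPKM, and no spread is known against which such gaps could be judged.

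**Figure D4:**
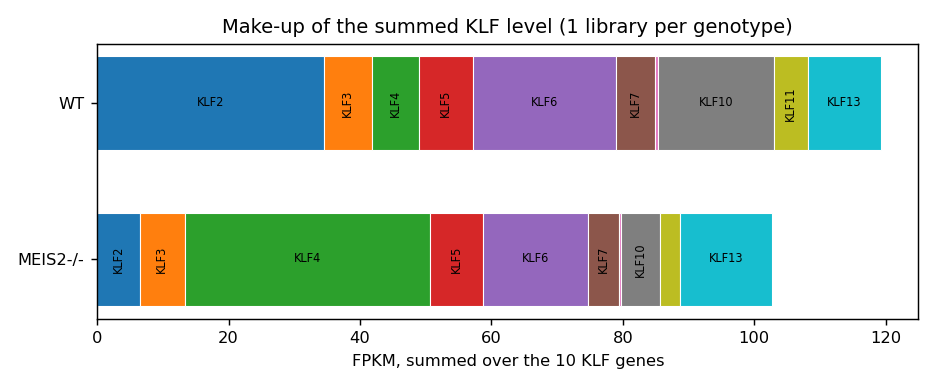
Summed FPKM of the 10 KLF genes in the WT and the MEIS2-/- library, with each segment as wide as the FPKM of 1 gene. The totals are 119.31 and 102.65 FPKM, and the widest segment is KLF2 in WT and KLF4 in MEIS2-/- cells.

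The rest of the family differed less than KLF2, KLF4 and KLF10. Of the 8 further KLF genes looked for, 7 were listed and 5 were compared, and none of the 5 reached 2-fold. KLF16, a SIN3A-binding member, was the highest of them, at 33.96 FPKM in WT and 26.46 FPKM in MEIS2-/- cells, and so almost as high as KLF2 in WT. KLF1, the erythroid factor that activates the beta-globin gene, was at 6.88 and 4.04 FPKM, a log2 fold change of −0.75. KLF15, a metabolic factor of liver, heart and kidney, was at 6.52 and 11.42 FPKM, a log2 fold change of 0.80. KLF8 was at 7.09 and 6.63 FPKM and KLF12 at 1.38 and 1.76 FPKM, both CtBP-binding repressors like KLF3. KLF14 and KLF17 were listed at 0.05 and 0.07 FPKM in WT and at 0 in MEIS2-/- cells. Over all 14 compared KLF genes, 2 (14.3%) were at least 2-fold lower, against 7.97% of all compared genes, and 1 (7.14%) was higher, against 7.84%. The median of the 14 was −0.23. The 3 CtBP-binding genes had log2 fold changes between −0.10 and 0.33.

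The SP genes are the closest relatives of the KLF genes and recognise GC boxes. Of 7 compared SP genes, 1 (14.3%) was at least 2-fold higher, against 7.84% of all compared genes, and none was lower. Their median was 0.03, which turned to −0.09 when the median of all genes was set to 0. SP8 was at 16.43 FPKM in WT and 37.42 FPKM in MEIS2-/- cells. SP5, a target of WNT signalling, was at 98.28 and 50.08 FPKM, a log2 fold change of −0.97. SP6 was at 54.64 and 30.47 FPKM. SP1, the broadly expressed member, was at 14.10 and 13.36 FPKM.

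Most genes of the known route to KLF2 and KLF4 differed by less than 2-fold. Of 14 genes of the ERK5 and MEF2 route, the CCM complex that restrains it and related sensors, 13 were compared. Of these, 1 (7.69%) was at least 2-fold lower, against 7.97% of all compared genes, and none was higher, with a median of −0.28. The lower gene was HDAC5, a class II deacetylase that binds and restrains MEF2 factors, at 43.33 FPKM in WT and 15.43 FPKM in MEIS2-/- cells. CCM2, at 32.22 and 37.38 FPKM, and PDCD10, at 20.48 and 22.25 FPKM, belong to the CCM complex. PIEZO1, a mechanosensitive channel, was at 23.10 and 17.06 FPKM. Named after their values were seen, MAPK7, which encodes ERK5, was at 19.05 and 19.86 FPKM, and MEF2D was at 13.81 and 7.66 FPKM.

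Genes that KLF2 or KLF4 activates in endothelium were lower in part. Of 9 compared genes, 3 (33.3%) were at least 2-fold lower, against 7.97% of all compared genes, and none was higher, with a median of −0.81. NOS3, the endothelial nitric oxide synthase, was at 20.96 FPKM in WT and 5.40 FPKM in MEIS2-/- cells, with a log2 fold change of −1.94. ASS1, which regenerates arginine for nitric oxide synthesis, was at 134.64 and 64.36 FPKM, a log2 fold change of −1.06. AQP1, a water channel, was at 3.21 and 1.36 FPKM, a log2 fold change of −1.18. TEK, the angiopoietin receptor, was at 16.01 and 8.84 FPKM, and PLPP3, a lipid phosphatase, was at 20.78 and 26.42 FPKM. The list did not move as a whole, since 3 of the 9 genes had positive values, the highest 0.44. NOSTRIN, named after its value was seen, was too low to be compared and was at 0.11 and 0.75 FPKM. The count of lower genes was 2 with a pseudocount of 1 FPKM and with a filter of 5 FPKM.

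Genes that KLF2 or KLF4 represses in endothelium were higher in part. Of 6 compared genes, 2 (33.3%) were at least 2-fold higher, against 7.84% of all compared genes, and none was lower. Their median was 0.04, which turned to −0.08 when the median of all genes was set to 0 and to −0.15 over the genes with 5 FPKM. EDN1, the vasoconstrictor endothelin, was at 1.79 FPKM in WT and 13.28 FPKM in MEIS2-/- cells, with a log2 fold change of 2.82. VCAM1, a leukocyte adhesion molecule, was at 0.49 and 2.06 FPKM, so it was compared only through its MEIS2-/- value. With a filter of 5 FPKM, 1 gene was at least 2-fold higher, EDN1. When the median of all genes was set to 0, 1 gene was at least 2-fold lower. F3, tissue factor, was at 5.43 and 4.87 FPKM. ANGPT2 was at 3.50 and 3.56 FPKM.

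The 10 compared endothelium markers all had negative values, and the KLF2 value lay at the edge of their range. Of 13 endothelium markers, 10 were compared and 8 of the 10 were at least 2-fold lower, with a median of −1.63 and a range from −2.38 to −0.66. The summed level of the 13 was 726.41 FPKM in WT and 172.86 FPKM in MEIS2-/- cells. Most of it was KDR, at 323.77 and 61.98 FPKM, and EGFL7, at 285.86 and 69.96 FPKM. None was listed at 0, but the markers not compared were close to it. These were EMCN, at 0.11 and 0.03 FPKM, CLDN5, at 0.28 and 0.65 FPKM, and ROBO4, at 0.05 and 0.09 FPKM. CLDN5 and ROBO4 thus had positive values. KLF2 at −2.39 was close to KDR, the VEGF receptor, at −2.38. The ratio of KLF2 to KDR was 0.107 in WT and 0.105 in MEIS2-/- cells, and the ratio of KLF2 to ERG, an endothelial ETS factor, was 5.06 and 4.54. Against CDH5, the junction protein VE-cadherin, the ratio was 2.27 in WT and 1.29 in MEIS2-/- cells. Against TEK it was 2.16 and 0.734, so KLF2 differed as much as some endothelium markers and more than others. The part of the endothelial share of the culture in the KLF2 value was not tested.

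The positive sign of KLF4 was shared by most markers of epithelium and of extraembryonic cell types and by no compared marker of endothelium. Of the 9 epithelium markers, all compared, 6 were at least 2-fold higher and 3 at least 2-fold lower, with a median of 1.45. The higher genes included CDH1, E-cadherin, at 10.68 FPKM in WT and 33.35 FPKM in MEIS2-/- cells, and CLDN4, a tight junction protein, at 7.95 and 38.73 FPKM. The 3 lower genes were the simple keratins KRT8, KRT18 and KRT19, with log2 fold changes from −1.23 to −1.16. Since the keratins were so abundant, the summed level of the list went the other way, from 6585.21 to 3443.36 FPKM. Of 8 visceral endoderm markers, 7 were at least 2-fold higher, or 5 with a filter of 5 FPKM. The summed level of the 8 was 460.2 FPKM in WT and 1025.03 FPKM in MEIS2-/- cells. Most of it was APOA1, at 401.38 and 879.13 FPKM. AFP, TTR and APOB were below 1 FPKM in WT and were compared only through their MEIS2-/- values. Of 8 amnion and trophectoderm markers, 6 were at least 2-fold higher, or 5 with a filter of 5 FPKM, with summed levels of 87.13 and 218.49 FPKM. GATA3, the most abundant of them in WT, hardly differed, at 55.06 and 55.40 FPKM. VTCN1, at 0.37 and 4.15 FPKM, was compared only through its MEIS2-/- value. None of the markers of these 3 lists was listed at 0, and their part in the KLF4 value was not tested.

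Partners of the KLF genes in pluripotent cells were higher in part. Mouse embryonic stem cells use KLF2, KLF4 and KLF5 together to hold the undifferentiated state. Of 9 such partners, 7 were compared, 4 were at least 2-fold higher and none was lower, with a median of 1.53 that fell to 0.40 when the genes below 1 FPKM were included. POU5F1, at 285.65 FPKM in WT and 1454.14 FPKM in MEIS2-/- cells, had a log2 fold change of 2.35, as had KLF4. NANOG was at 17.13 and 70.78 FPKM, PRDM14 at 2.26 and 8.63 FPKM and TFCP2L1 at 1.54 and 4.63 FPKM. SALL4 was at 23.75 and 29.79 FPKM and TBX3 at 63.48 and 62.03 FPKM. SOX2, named after its value was seen, was at 0.09 and 0.15 FPKM. Of the KLF genes that this state uses, KLF4 was higher, KLF5 was nearly equal and KLF2 was lower.

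Early response genes, which respond quickly to serum and growth factors as KLF2, KLF6 and KLF10 can, had negative values throughout the compared list. Of 14 early response genes, 11 were compared, all had negative log2 fold changes and 5 were at least 2-fold lower. The median was −0.92, or −1.04 with the median of all genes set to 0. FOS was at 5.78 FPKM in WT and 0.94 FPKM in MEIS2-/- cells, JUN at 56.46 and 24.11 FPKM and ZFP36, an RNA decay factor, at 33.78 and 9.38 FPKM. MYC was at 54.12 and 20.22 FPKM and JUNB at 25.52 and 11.49 FPKM. IER2, the most abundant of them, was at 133.38 and 92.41 FPKM, and IER3 was at 82.86 and 43.79 FPKM. KLF4 can also be induced in this way and had the opposite sign.

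Genes around KLF6, KLF10 and KLF11 in TGF-beta signalling were lower in part. Of 12 genes, all compared, 3 were at least 2-fold lower and none was higher, with a median of −0.25. TGFB1, the ligand that induces KLF10, was at 246.39 FPKM in WT and 84.42 FPKM in MEIS2-/- cells, with a log2 fold change of −1.54 beside −1.53 for KLF10. CDKN1A, a cell cycle inhibitor that KLF4 and KLF6 can activate, was at 189.67 and 33.49 FPKM, a log2 fold change of −2.50 and thus opposite in sign to KLF4. ACVRL1, an endothelial receptor that KLF6 can activate, was at 24.05 and 9.25 FPKM. SMAD7, the inhibitory SMAD that KLF10 represses, was at 28.23 and 22.91 FPKM, a log2 fold change of −0.30, in the same direction as KLF10. No effect of these genes on the KLF genes, or of the KLF genes on them, was tested.

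Most genes of the cofactors and ligases of the KLF proteins differed by less than 2-fold. Of 12 corepressors and coactivators, 2 were at least 2-fold higher, against 7.84% of all compared genes, and none was lower, with a median of 0.17, and 1 was higher when the median of all genes was set to 0. CTBP1, the corepressor of KLF3, was at 104.23 FPKM in WT and 107.2 FPKM in MEIS2-/- cells. HDAC1 was at 70.38 and 72.27 FPKM, SAP18, a SIN3 complex subunit, at 35.10 and 44.27 FPKM and FHL3, a cofactor of KLF3, at 58.47 and 34.28 FPKM. The 2 higher genes encode acetyltransferases, CREBBP at 6.86 and 15.02 FPKM and KAT2B at 0.35 and 2.17 FPKM. None of 5 ubiquitin ligase genes, all compared, reached 2-fold, and their log2 fold changes ran from −0.37 to 0.16, with a median of 0.00 that turned to −0.12 when the median of all genes was set to 0. The lowest of these was WWP1, a ligase of KLF2 and KLF5, at 16.28 and 12.58 FPKM. SMURF1 was at 12.07 and 12.08 FPKM, SMURF2 at 9.55 and 9.75 FPKM and ITCH at 7.33 and 8.20 FPKM.

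Companions of KLF9 in its hormone responses, which include hormone targets, receptors and an enzyme, moved in both directions. Of 7 compared genes, 1 was at least 2-fold lower and 2 were higher, with a median of −0.01 that turned to 0.23 without the filter and to −0.83 with a filter of 5 FPKM. The count of higher genes was 1 with a pseudocount of 1 FPKM, under both scalings and with the filter of 5 FPKM. TSC22D3, a glucocorticoid target, was at 20.37 FPKM in WT and 7.86 FPKM in MEIS2-/- cells, and PER1, a clock gene that glucocorticoid also induces, was at 27.96 and 14.53 FPKM. FKBP5 was at 8.44 and 4.71 FPKM. DIO2, which activates thyroid hormone, was at 3.48 and 9.48 FPKM and ZBTB16 at 0.65 and 1.43 FPKM. ZBTB16 was thus compared only through its MEIS2-/- value.

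**Figure D5:**
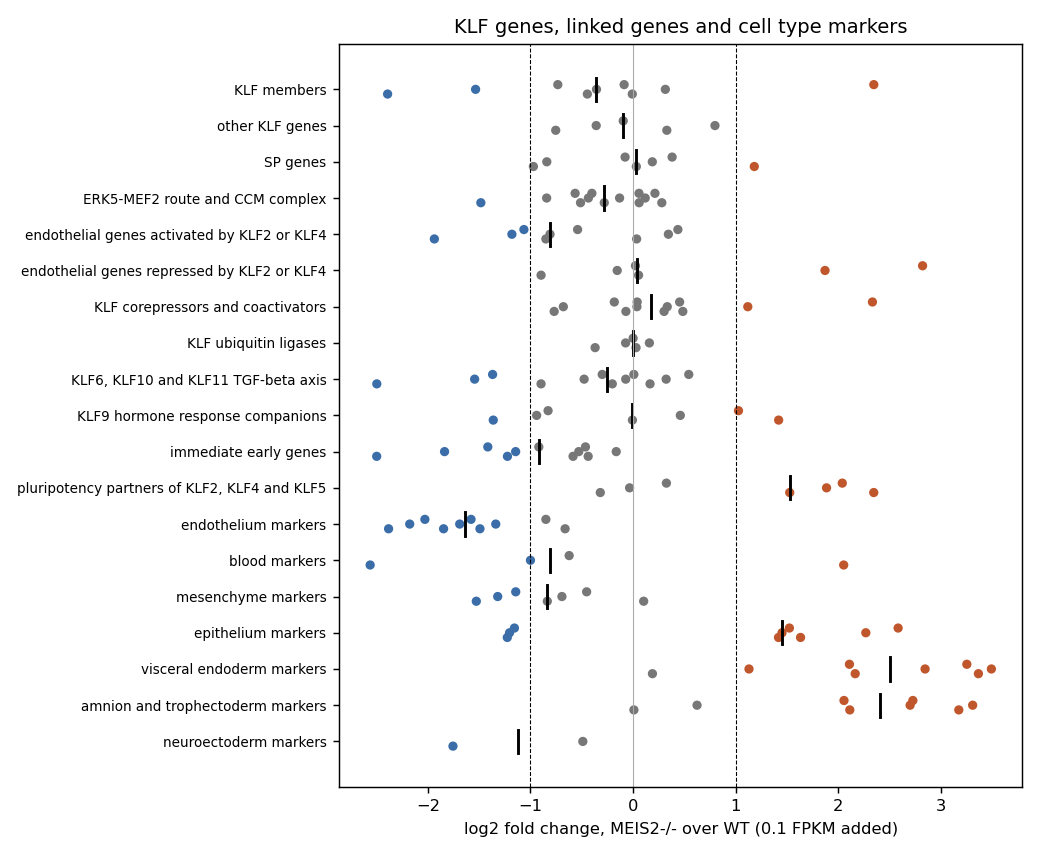
Log2 fold changes (MEIS2-/- over WT, 0.1 FPKM added) of the compared genes of 19 lists, 1 point per gene and a black bar at the median, with dashed lines at 2-fold and with blue and orange for genes past them. The KLF rows spread from −2.39 to 2.35, the endothelium markers lie left of 0, and the visceral endoderm and amnion and trophectoderm markers lie right of it.

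Of the remaining cell types, mesenchyme markers were lower in part, and blood markers were low in both libraries. Of 9 blood markers, 8 were listed and 4 were compared, with 2 at least 2-fold lower and 1 higher, and 2 were at 0 in a library. With a pseudocount of 1 FPKM, 0 blood markers were at least 2-fold lower. The 8 together were at 9.02 FPKM in WT and 7.35 FPKM in MEIS2-/- cells. Of 8 mesenchyme markers, 7 were compared, 3 were at least 2-fold lower and none was higher, with a summed level of 816.23 and 343.47 FPKM. Of 6 neuroectoderm markers, 2 were compared, 1 of them at least 2-fold lower, and the summed level of the 5 listed was 105.01 and 69.86 FPKM, nearly all of it NES, at 92.71 and 66.02 FPKM. The neuroectoderm marker ZIC1 was listed at 0 in WT.

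The genes whose levels in the 2 libraries were most like those of KLF2 and KLF4 were found by the distance between log2 values over these libraries. For KLF2 they included GRAP2, at 34.41 and 6.53 FPKM, and F2RL2, at 32.71 and 6.72 FPKM. For KLF4 they were GLDC, at 7.27 and 38.70 FPKM, NMU, at 7.55 and 36.91 FPKM, and GSTA1, at 7.23 and 35.27 FPKM. A pattern over 2 libraries is only a pair of levels.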

How the data were processed

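RNA-Seq was performed for the study by BGI from Trizol-extracted RNA of 1 WT and 1 MEIS2-/- culture. The authors deposited FPKM values with 2 decimals for 17397 genes, each pooling the RefSeq transcripts of an NCBI Gene number. The submitters' processing notes name BWA, Bowtie, RSEM and hg19, without roles, and versions are not given in the sources used here. The kit named in the labels keeps no strand, so reads of overlapping antisense genes, and of KLF pseudogenes, could enter a value. Symbols came from RefSeq (GRCh38.p14) and matched 17365 genes. Low FPKM of short single-transcript genes (207 in WT and 213 in MEIS2-/- cells, lengths from GENCODE 29) were compared with whole-read steps. The agreement kept was the best over many trial depths and several length corrections, and what such a search reaches without any steps was not worked out. It was at most 0.24 on a scale where 1 is complete. No depth could be read from it, so depth is unknown and no counting interval is given.

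Log2 fold changes used a pseudocount of 0.1 FPKM over genes with 1 FPKM in at least 1 library. The computation was tested on simulated data. The genes and lists were chosen with earlier results of these data known. Named were all KLF genes and MEIS2, from each list up to 4 genes with the highest FPKM and genes past 2-fold (fewer for marker lists), and for KLF2 and KLF4 the 3 nearest genes. Of the genes this rule names, 2 are not reported here. Alternatives were pseudocounts of 1 and 0.01, filters of none and 5 FPKM, a 1.5-fold threshold, a median log2 ratio of 0 and a trimmed mean of log ratios (30% of ratios and 5% of means per side). Python 3.11.15, numpy 2.4.6, pandas 2.3.3 and matplotlib 3.10.9 were used.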

Additional observations from a re-analysis of the deposited data

How the results depend on the processing

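The log2 fold changes of the 10 KLF genes kept their sign and their side of 2-fold under both other pseudocounts and both scalings. KLF2 ranged from −2.51 to −2.25, KLF4 from 2.22 to 2.36, KLF10 from −1.65 to −1.41, KLF13 from 0.19 to 0.32 and KLF5 from −0.13 to −0.01. At 1.5-fold, 3 KLF genes were lower and 1 was higher, against 14.5% and 18.0% of all compared genes. A pseudocount of 1 left 5.30% of all genes lower and 4.76% higher, and setting the median of all genes to 0 left 9.22% lower and 6.27% higher. That scaling also added 1 lower gene each to the SP genes, to the genes repressed by KLF2 or KLF4 and to the KLF9 companions. The same held for the TGF-beta genes and the early response genes. Of 469 alternative values, 422 kept both their sign and their side of 2-fold or, for counts and shares, stayed within 1.5 times. The others were medians and small counts of lists beside the 10 genes and values over all genes. No blood marker was left at 5 FPKM. The unknown depth and the single library per genotype limit every value. No paired analysis was possible because each genotype has 1 library.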

Other observations

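The large family of zinc finger genes named ZNF and a number was looked at after the KLF values were seen. Of 414 compared ZNF genes, 5 (1.21%) were at least 2-fold lower, against 7.97% of all compared genes, and 24 (5.80%) at least 2-fold higher, against 7.84%, with a median log2 fold change of 0.20 beside 0.12 for all compared genes. No test was made of these shares.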
